A study of Mus musculus with 48 samples.

Results

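The metallothioneins described here are Mt1, Mt2 and Mt3, chosen as all probe sets whose single gene symbol in the array's annotation is one of those names. They comprise 4 of the 22626 probe sets of an Affymetrix mouse array once its controls are set aside, and 3 of the 12393 genes with a probe set of 1 symbol. Mt1 is read by a bright and a dim probe set, and Mt2 and Mt3 by a single probe set each. The bright Mt1 probe set carries the suffix _s_at, which marks a design that can also read related genes, so its value may include signal from another metallothionein. Values given for Mt1 are those of the bright probe set unless the dim one is named.

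The study compared the sexes in healthy mouse tissues. The groups were testis, ovary, male and female hypothalamus, male and female kidney, and male and female liver, each with 3 RNA samples hybridised to 2 arrays, 24 RNA samples and 48 arrays in all. The RNA was purchased, and per the labels every RNA sample came from 10 pooled animals. Liver, kidney, ovary and testis RNA was polyA-selected and hypothalamus RNA was total RNA, per 1 label field, whereas another field gives total RNA throughout. No treatment, mutation, strain or age is given in the labels used here. Whether the 3 RNA samples of a group were pooled from different animals is not stated either, and the p-values then measure only the spread between these samples, which may be technical.

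Metallothioneins are small, cysteine-rich proteins that bind zinc and copper and can take up toxic metals such as cadmium. Transcription of Mt1 and Mt2 is raised by the zinc-sensing factor MTF1, which binds metal response elements in their promoters, and by glucocorticoids, inflammation and oxidative stress. Liver is a main site of this induction. Mt3 is the form of the brain, first described as growth inhibitory factor, and is known to respond little to metals.

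The genes lie side by side on mouse chromosome 8 in build GRCm38.p6. Mt3 spans chr8:94152607-94154148, Mt2 spans chr8:94172618-94173567 and Mt1 spans chr8:94178883-94180327, so that Mt1 starts 5316 bases past the end of Mt2, and Mt2 starts 18470 bases past the end of Mt3. Mt4, the skin form, begins the row at chr8:94137204-94139031 and is not among the genes described here. Promoter sequences are shown because MTF1 is known to act on Mt1 and Mt2 through metal response elements there. They come from RefSeq, all on the plus strand, written 5' to 3' with each metal response element core in capitals. The Mt1 line gives 30 bases around its site (chr8:94179054-94179083), and the Mt2 (chr8:94172368-94172617) and Mt3 (chr8:94152357-94152606) lines give the 250 bases before the start. For Mt1 the RefSeq tables disagree: the promoter table counts back from the end of its window, chr8:94178839-94179088, whereas the gene table starts Mt1 at 94178883, so most of that window and the site shown lie inside the gene span given above.
Mt1: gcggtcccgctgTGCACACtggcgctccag
Mt2: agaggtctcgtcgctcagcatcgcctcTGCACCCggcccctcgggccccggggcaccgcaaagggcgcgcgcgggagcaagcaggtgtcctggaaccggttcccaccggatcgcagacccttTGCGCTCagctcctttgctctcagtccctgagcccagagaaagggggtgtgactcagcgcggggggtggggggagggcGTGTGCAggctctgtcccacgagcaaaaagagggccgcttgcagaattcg
Mt3: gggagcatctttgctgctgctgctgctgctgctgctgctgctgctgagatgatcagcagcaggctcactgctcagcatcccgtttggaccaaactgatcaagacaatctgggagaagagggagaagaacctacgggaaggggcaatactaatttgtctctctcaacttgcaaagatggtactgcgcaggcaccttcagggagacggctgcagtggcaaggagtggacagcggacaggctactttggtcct
The core was searched as TGCACNC or TGCGCNC on both strands. Mt1 held 1 match in its 250 bases, at -23 to -17 from the start in the promoter table and not before the start in the gene table. Mt2 held 3, at -223 to -217, at -128 to -122 and, on the minus strand, at -50 to -44. Mt3 held 0 and instead carried a run of 11 CTG triplets. Of 32851 mouse promoters of the same length, 21.4% held at least 1 match and 1.26% at least 3, and 4 held as long a CTG run. With the first 50 bases after the start included, the matches numbered 3 for Mt1, 4 for Mt2 and 1 for Mt3. As many matches were found in 1.97%, 0.517% and 25.7% of promoters in those 3 cases. The antioxidant response element TGACNNNGC matched once, in Mt2 at -79 to -71, overlapping no other match, and 10.2% of promoters held it. A TATAAA box was in none of the 3 windows of 250 bases, and 7.59% of promoters held it. For Mt1, whose start is uncertain, that covers this window only and not the promoter as a whole. These matches describe letters in a window and not bound sites.

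Intensities are the linear values the authors deposited, scaled so that every array has a trimmed mean near 500 (500.11 to 500.23), and averaged over the 2 arrays of an RNA sample. Array medians ranged from 163 to 276, and the 2 arrays of a sample correlated at 0.966 to 0.990 over all probe sets. A probe set counted as above the test level in a sample where it exceeded the 40th percentile of that sample, which lay between 110 and 185. Lists of tissue markers were highest in their own tissue, but not all were confined to it. The summed level of 8 proximal tubule genes was 56142 to 67183 in kidney and at most 3082 elsewhere, and that of 8 male germ cell genes was 91827 to 125926 in testis and at most 566 elsewhere. The sum of 7 hepatocyte genes was 118370 to 138578 in liver, 8800 to 15592 in hypothalamus and 3949 to 9731 in kidney. In hypothalamus 5 of these 7 were below the test level in males and 4 in females. The sum of 7 granulosa and luteal cell genes was 39214 to 45076 in ovary and 6977 to 8957 in testis. Liver RNA also carried exocrine pancreas transcripts. The sum of 11 such genes was 44964, 11313 and 56405 in male liver samples 1 to 3 and 47515, 20370 and 20112 in female liver samples 1 to 3, and it was 1308 to 5687 outside the liver. The sum of 8 immune cell genes stood apart in the samples numbered 1 of liver and kidney. It was 10072 in male kidney 1 and 12209 in female kidney 1, against 31736 to 40857 in the other kidney samples, while male liver 1 had 9093 and female liver 1 had 10945, below the 36183 to 50177 of the remaining liver samples. Their part in the metallothionein values was not tested, and the main differences of both tissues are also given without those samples below.

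Mt1 was above the test level in 24 of 24 RNA samples and highest in liver. Its intensity was 7533, 16995 and 12681 in male liver and 17837, 14253 and 15521 in female liver. Testis followed, with 7707, 6096 and 8989. Male hypothalamus had 5730, 5381 and 5167, ovary 4814, 5545 and 5490, and female hypothalamus 5806, 5246 and 4748. Kidney was lowest, with 1887, 5573 and 1780 in males and 2517, 3198 and 2980 in females. Male kidney 2 thus lay 3.13-fold above the lowest male kidney sample and within the range of the hypothalamus, and male liver 1 lay 2.26-fold below the highest male liver sample and within the range of testis. In every other group the highest sample was at most 1.48-fold the lowest. By group means the order was female liver (15870 ± 1817), male liver (12403 ± 4737), testis (7598 ± 1450), male hypothalamus (5426 ± 284), ovary (5283 ± 407), female hypothalamus (5267 ± 529), male kidney (3080 ± 2160) and female kidney (2898 ± 348; SD, n = 3 each). Of these neighbours, testis and male hypothalamus alone did not overlap.

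Mt2 was likewise above the test level in 24 of 24 samples and took the same broad order. It measured 3407, 10252 and 6513 in male liver and 10452, 6504 and 9055 in female liver. Testis had 4206, 4449 and 6470 and ovary 2655, 3787 and 2826. The hypothalamus gave 2678, 3405 and 2982 in males and 3057, 3202 and 3227 in females. Kidney was again lowest, with 1369, 2596 and 1096 in males and 1321, 2156 and 1405 in females. Male liver 1 and male kidney 2 stood out here too, as the lowest liver sample and the highest kidney sample. The ranges of testis and female hypothalamus, next to each other in the order of means, did not overlap, and neither did those of male hypothalamus and male kidney. Over the 8 group means of log2 values Mt1 and Mt2 correlated at r = 0.99, a description over 8 points that share arrays and scaling. The Mt1 value may include signal from another metallothionein, and its part in this correlation was not tested.

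**Figure D1:**
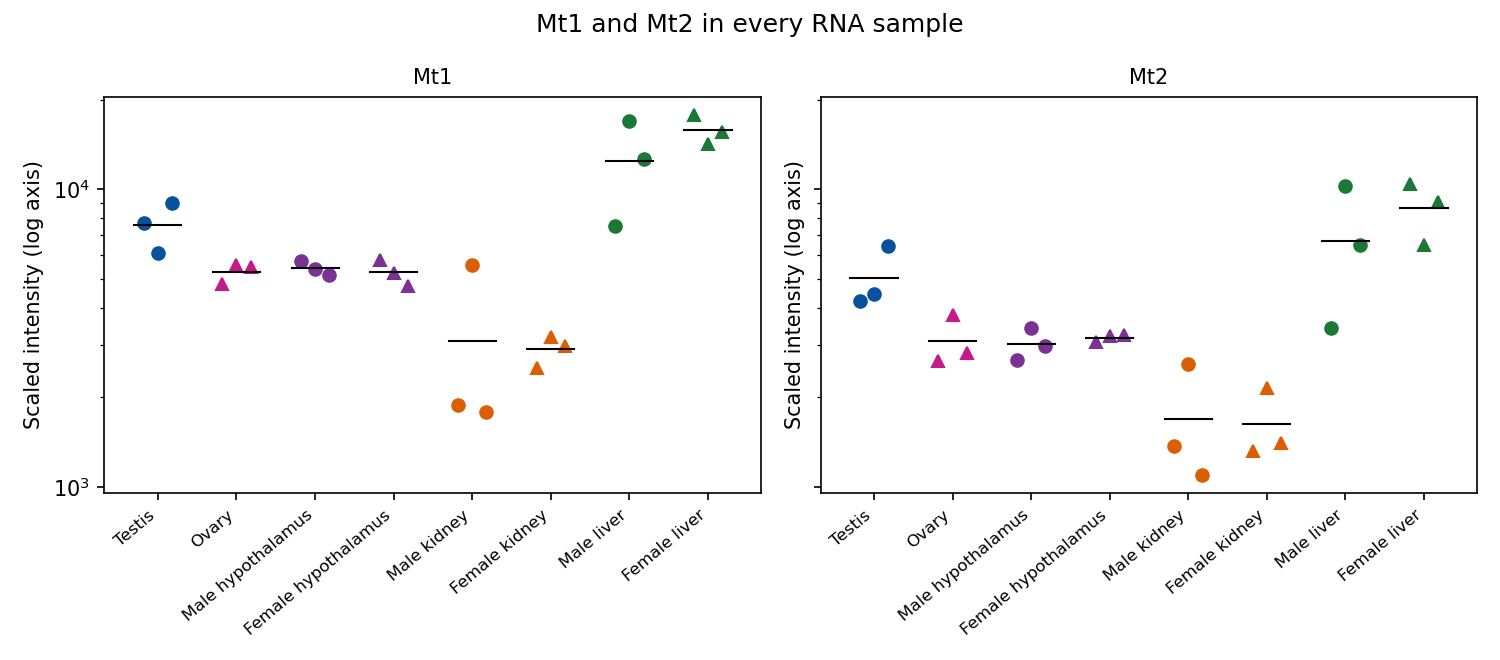
Scaled intensity of Mt1 (left, bright probe set) and Mt2 (right) on a log axis for every RNA sample, by group, with samples 1 to 3 of a group drawn left to right, circles for males, triangles for females and lines for group means. Liver holds the highest group means of both genes and kidney the lowest, and male kidney 2 (Mt1 5573) and male liver 1 (Mt1 7533) lie apart from the other samples of their groups.

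The dim Mt1 probe set ranged from 28.2 to 207 and passed the test level in 3 of 24 samples, 1 male liver and 2 female livers. Male liver averaged 140 and female liver 168, and the means of all remaining groups lay between 48.7 and 74.5. It ordered liver above the rest as the bright probe set did, but its 2 arrays differed by up to 7.06-fold within a sample. The bright probe set differed by at most 1.33-fold, Mt2 by at most 1.72-fold and Mt3 by at most 6.76-fold, and the Mt3 median was 1.25-fold.

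Mt3 showed another distribution, bright in hypothalamus, low in ovary and below the test level elsewhere. It measured 5790, 5011 and 4698 in male hypothalamus and 5659, 4672 and 4117 in female hypothalamus. Ovary had 558, 411 and 474. Testis had 23.0, 80.9 and 71.0, below the test level in all 3 samples. Kidney had 47.3, 26.5 and 45.2 in males and 60.2, 36.5 and 16.4 in females, and liver 18.8, 19.5 and 14.4 in males and 19.8, 12.1 and 13.3 in females. In all, 9 of 24 samples passed, those of hypothalamus and ovary. The neurons and astrocytes of the hypothalamus are marked by genes that were also far above other tissues there: 8 neuron markers summed to 33721 to 37435 in hypothalamus and at most 731 elsewhere, and 8 astrocyte markers to 27101 to 31012. In ovary the neuron list was below the test level for 8 of 8 genes and summed to 648 to 696, and the astrocyte list summed to 10436 to 11018, with 5 of 8 genes above the test level in at least 1 ovary sample and Gfap, Aqp4 and Slc1a2 below it. That sum was 2091 to 4034 in testis, kidney and liver. The part of these cell types in the ovary level of Mt3 was not tested. Across the 8 group means Mt3 correlated with Mt1 at -0.19 and with Mt2 at -0.17, given as a description.

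**Figure D2:**
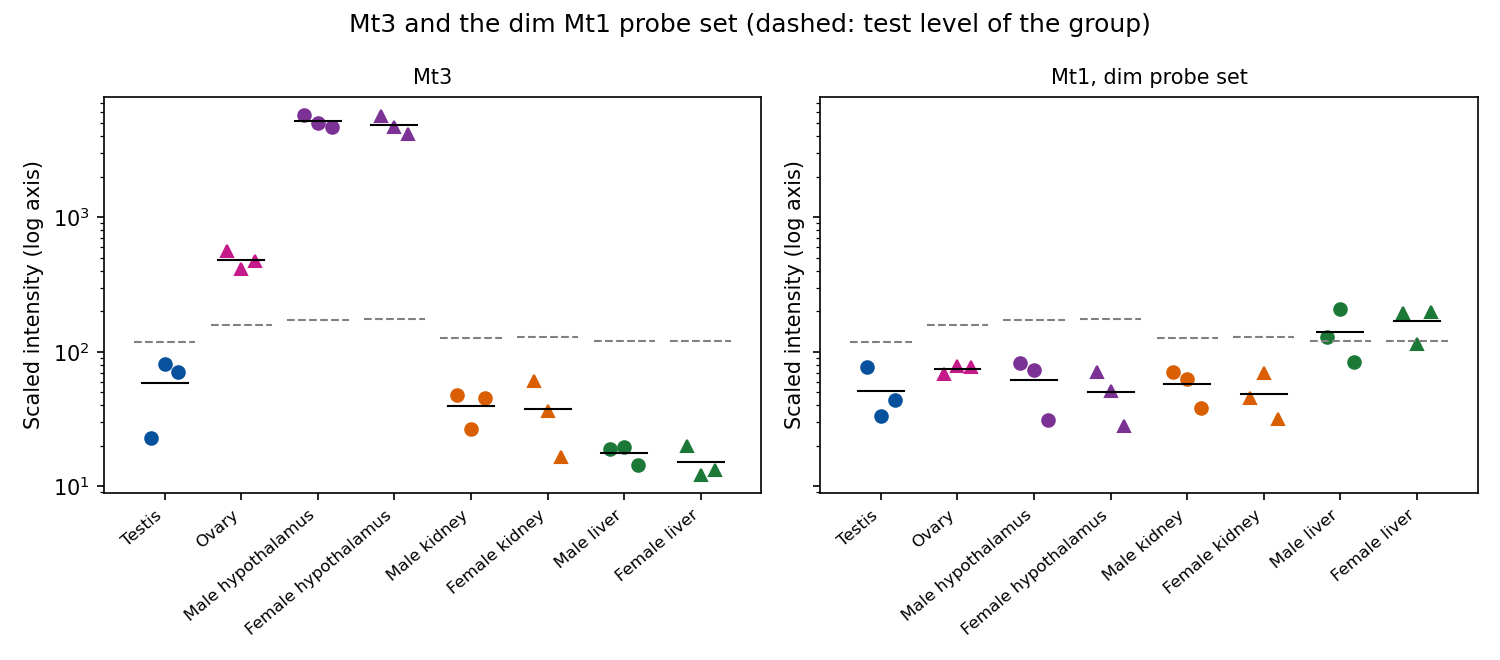
Scaled intensity of Mt3 (left) and of the dim Mt1 probe set (right) on a log axis for every RNA sample, by group, with solid lines for group means and dashed lines for the test level of each group. For Mt3 the 6 hypothalamus samples lie between 4117 and 5790 and the 3 ovary samples between 411 and 558, and the samples of testis, kidney and liver lie below their dashed lines. In the right panel 3 liver samples exceed their own test level.

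The first question of the design is whether the sexes differ within a tissue. No metallothionein passed the test between males and females in liver, kidney or hypothalamus. In liver Mt1 was 12403 ± 4737 in males and 15870 ± 1817 in females (SD, n = 3 each), a log2 difference, male minus female, of -0.42 ± 0.28 (SE; 95% interval -1.06 to 0.21, limma adjusted p = 1). Mt2 in liver differed by -0.49 ± 0.38 (-1.37 to 0.39, limma adjusted p = 1). Without the samples numbered 1, the liver differences were -0.02 for Mt1 and 0.09 for Mt2. In kidney Mt1 differed by -0.11 ± 0.39 (-1.004 to 0.78) and Mt2 by 0.005 ± 0.32 (-0.73 to 0.74), both with limma adjusted p = 0.9997. The kidney values moved most with male kidney 2, without which Mt1 was at -0.63 (limma adjusted p = 0.536) and Mt2 at -0.35, the lowest values with 1 sample left out. The highest, 0.17 and 0.25, were without male kidney 3, and without the samples numbered 1 Mt1 was at 0.04 and Mt2 at -0.01. In liver Mt1 was at -0.10 and Mt2 at -0.06 without male liver 1, and at -0.69 and -0.87 without male liver 2, the extremes with 1 sample left out. The intervals of liver and kidney therefore still hold log2 differences of -1.37 in liver and -1.004 in kidney. In hypothalamus they were narrower: 0.04 ± 0.10 for Mt1 (-0.19 to 0.27), -0.07 ± 0.11 for Mt2 (-0.31 to 0.17) and 0.11 ± 0.13 for Mt3 (-0.19 to 0.41), with limma adjusted p = 0.9999. Mt3 was not tested in liver and kidney, where it stayed below the test level. Sex differences were few over the whole array: 0.0505% of 13857 probe sets were called in liver, 0.231% of 13857 in kidney and 0.0507% of 13802 in hypothalamus. With the sample number as a block the calls were 11 instead of 7 in liver and 137 instead of 32 in kidney, and no metallothionein was among them.

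Whether a sex difference itself differed between tissues was tested in 1 fit of liver, kidney and hypothalamus. No metallothionein was called. The sex difference in kidney minus that in liver was 0.31 ± 0.46 for Mt1 and 0.49 ± 0.48 for Mt2 (SE), that in hypothalamus minus liver 0.47 ± 0.46 and 0.42 ± 0.48, and that in hypothalamus minus kidney 0.15 ± 0.46 and -0.07 ± 0.48. The limma adjusted p was at least 0.9998 for each of these. Of 16907 probe sets, 0.237%, 0.0177% and 0.207% were called in these 3 comparisons.

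Between the gonads, Mt1 and Mt2 were higher in testis and Mt3 was higher in ovary, and for each gene the 2 groups did not overlap. In bulk RNA fewer cells of a type and less RNA per cell cannot be told apart, here and in every comparison between tissues. Mt1 was 7598 ± 1450 in testis and 5283 ± 407 in ovary (SD, n = 3 each), a log2 difference of 0.50 ± 0.18 (SE; 95% interval 0.10 to 0.91), or 1.42-fold (limma adjusted p = 0.0296). Mt2 was 5042 ± 1243 in testis and 3089 ± 610 in ovary, a difference of 0.68 ± 0.22 (0.19 to 1.17), or 1.60-fold (limma adjusted p = 0.0178). Mt3 was 58.3 ± 30.9 in testis, below the test level, and 481 ± 74.0 in ovary, a log2(intensity + 48.3) difference of -2.43 ± 0.22 (-2.92 to -1.94, limma adjusted p = 7.9e-06). It entered this fit only through the 3 ovary samples, so this p-value is not independent of that choice. Calls were common between these organs, at 70.5% of 14962 probe sets, so being called does not set the metallothioneins apart. Quantile normalization, which moved the median of all tested probe sets up by 0.28, left Mt1 at 0.19 (limma adjusted p = 0.409) and Mt2 at 0.37 (limma adjusted p = 0.217), and ended both calls. The Mt1 call was also lost without any 1 of testis 1, testis 3 and the 3 ovary samples, and the Mt2 call without ovary 1 or ovary 3. Of all calls, 35.3% were higher in testis, against 45.0% after quantile normalization and 50.9% after median centring.

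Among the 3 tissues with both sexes, Mt1 and Mt2 were lowest in kidney, intermediate in hypothalamus and highest in liver, and the differences passed the test in each pair. Kidney and liver did not overlap. Mt1 in kidney was below liver with a log2 difference of -2.28 ± 0.21 (SE, 6 samples each, limma adjusted p = 3.5e-09), 4.86-fold, and Mt2 by -2.17 ± 0.23 (limma adjusted p = 2.5e-08), 4.49-fold. The dim Mt1 probe set gave -0.98 ± 0.18 (limma adjusted p = 5.7e-05). It entered this fit only through 3 liver samples, so its calls against liver lend the bright probe set no separate support. Without male kidney 2 and male liver 1, a choice made after seeing the data, the differences were -2.70 for Mt1 and -2.56 for Mt2, and without the samples numbered 1 they were -2.23 and -2.19. Called probe sets made up 53.5% of the 18085 tested. Mt3 was also called, at 0.38 ± 0.13 (limma adjusted p = 0.0182), but both tissues lay below the test level and overlapped, and no direction is read from it.

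Mt1 and Mt2 in hypothalamus were below liver and above kidney. Against liver, Mt1 differed by -1.35 ± 0.21 (SE, 6 samples each, limma adjusted p = 5.2e-06), 2.54-fold lower in hypothalamus, and Mt2 by -1.21 ± 0.23 (limma adjusted p = 4.9e-05), 2.31-fold lower. Neither gene overlapped between the 2 tissues, although for Mt2 the lowest liver sample (3407) was just above the highest hypothalamus sample (3405). The dim Mt1 probe set, tested only because of its liver samples, gave -0.97 against liver (limma adjusted p = 3.4e-05). Against kidney, Mt1 differed by 0.94 ± 0.21 (limma adjusted p = 4.4e-04), 1.91-fold higher in hypothalamus, with an overlap through male kidney 2, and Mt2 by 0.96 ± 0.23 (limma adjusted p = 6.4e-04), 1.95-fold higher and without overlap. Mt3 differed from both tissues by far more, with 6.28 ± 0.13 against liver (limma adjusted p = 2.0e-21) and 5.89 ± 0.13 against kidney (limma adjusted p = 9.4e-21) on the log2(intensity + 48.3) scale. Mt3 was above the test level only in hypothalamus and ovary and was tested because of them, so these p-values are not independent of that choice. Here RNA type and tissue cannot be told apart if the 1 label field holds that gives total RNA for hypothalamus and polyA-selected RNA for the rest. The call rates were 76.2% against liver and 72.5% against kidney, of 18085 probe sets each. Median centring moved the median of all probe sets down by 0.39 against liver and 0.32 against kidney, and quantile normalization by 0.30 and 0.23. Under median centring and quantile normalization Mt1 was at -1.73 and -0.65 against liver and at 0.62 and 1.30 against kidney, and Mt2 at -1.59 and -0.68 and at 0.65 and 1.24, each still called. Without the samples numbered 1 of liver and kidney, Mt1 was at -1.46 against liver and 0.77 against kidney, and Mt2 at -1.35 and 0.84, all called. The share of calls higher in hypothalamus was 62.8% against liver, with 50.1% after quantile normalization and 43.4% after median centring, and 60.0% against kidney, with 48.5% and 41.5%.

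**Figure D3:**
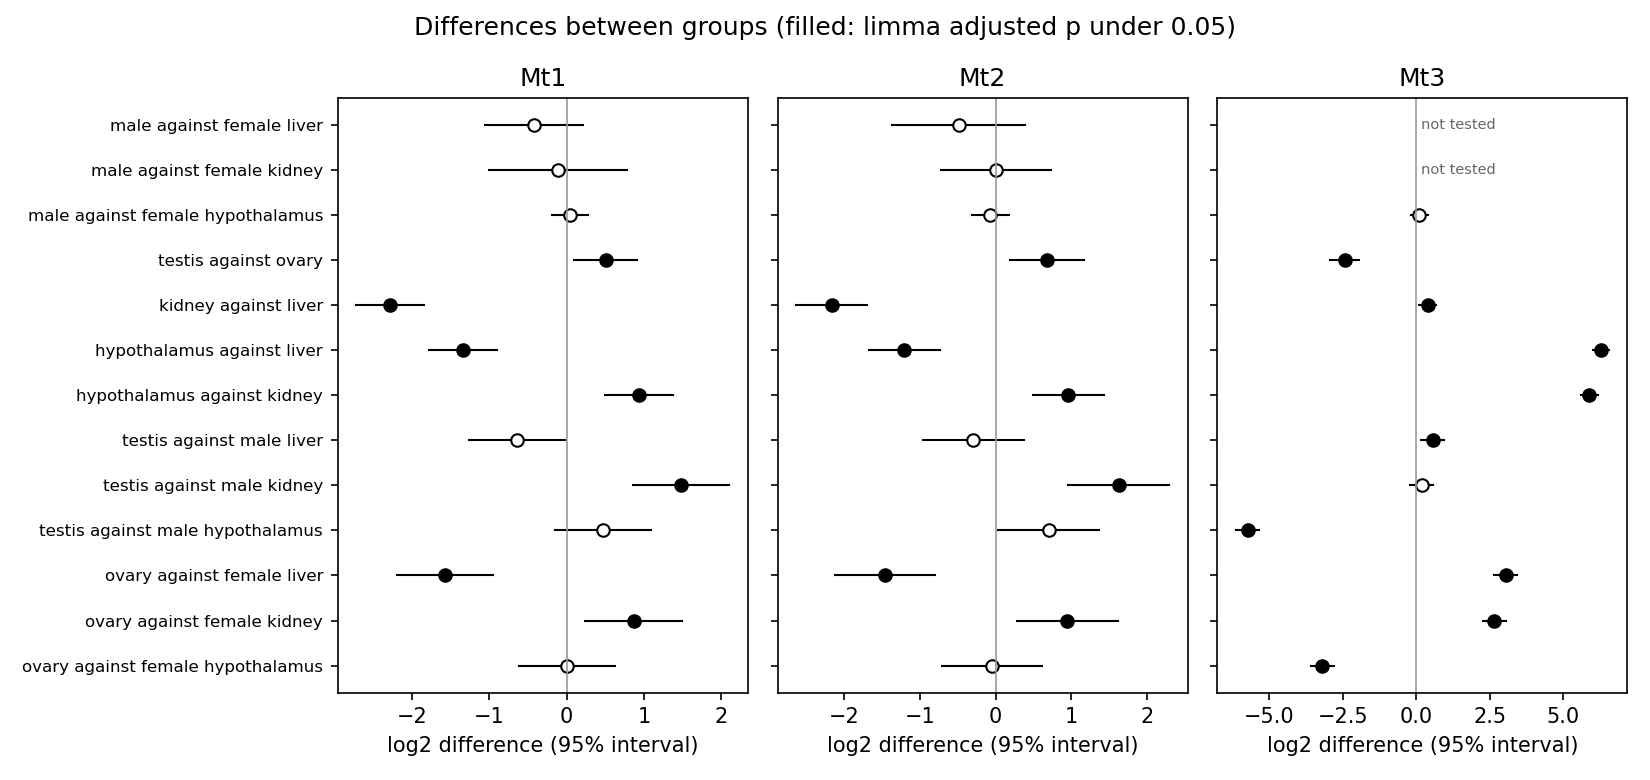
Log2 differences with 95% intervals for Mt1 (bright probe set), Mt2 and Mt3 in the sex, gonad and tissue comparisons, each the first-named group minus the second, with filled points where the limma adjusted p is under 0.05. The Mt3 panel has a wider axis. The intervals of the sex differences within a tissue include 0 (Mt1 in liver -1.06 to 0.21), and Mt3 in hypothalamus against liver and kidney lies farthest from 0 (6.28 and 5.89).

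The gonads were set against the tissues of their own sex in the same fit. Testis and male kidney did not overlap in Mt1 or Mt2: Mt1 was 1.48 ± 0.30 higher in testis on the log2 scale (SE, limma adjusted p = 1.5e-04), 2.79-fold, and Mt2 1.63 ± 0.32 higher (limma adjusted p = 1.1e-04), 3.09-fold. Against male liver neither passed, with -0.65 ± 0.30 for Mt1 (limma adjusted p = 0.0617) and -0.29 ± 0.32 for Mt2 (limma adjusted p = 0.433). Both were called lower in testis once male liver 1 was left out, at -0.97 for Mt1 (limma adjusted p = 0.00836) and -0.73 for Mt2 (limma adjusted p = 0.0376). The dim Mt1 probe set, tested only because of its liver samples, gave -0.89 ± 0.25 against male liver (limma adjusted p = 0.00327). Mt3 gave 0.56 ± 0.19 (limma adjusted p = 0.0115) with both groups below the test level. Against male hypothalamus Mt1 differed by 0.47 ± 0.30 (limma adjusted p = 0.172) and Mt2 by 0.70 ± 0.32 (limma adjusted p = 0.0553), although neither gene overlapped between these groups. With the sample number as a block Mt2 was called (limma adjusted p = 0.0366). Median centring called both, at 0.88 for Mt1 (limma adjusted p = 0.0133) and 1.11 for Mt2 (limma adjusted p = 0.00414), as did a fit of the compared groups alone, at 0.47 (limma adjusted p = 0.0343) and 0.70 (limma adjusted p = 0.0110). Mt3 in testis was below male hypothalamus with a difference of -5.74 ± 0.19 (limma adjusted p = 1.8e-17) and differed from male kidney by 0.18 ± 0.19 (limma adjusted p = 0.403). It was in that fit only through hypothalamus and ovary, so the p-value against hypothalamus is not independent of that choice. Of 18085 probe sets 66.7% were called against male kidney, 68.3% against male liver and 70.8% against male hypothalamus. Against male hypothalamus the share of calls that were higher in testis was 37.2%, and 48.5% after quantile normalization and 54.5% after median centring.

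Ovary lay below female liver and above female kidney in Mt1 and Mt2. The log2 difference in Mt1 was -1.57 ± 0.30 against female liver (SE, limma adjusted p = 1.1e-04), 2.97-fold lower in ovary, and 0.87 ± 0.30 against female kidney (limma adjusted p = 0.0201), 1.82-fold higher. For Mt2 these were -1.46 ± 0.32 (limma adjusted p = 4.5e-04), 2.76-fold lower, and 0.95 ± 0.32 (limma adjusted p = 0.0172), 1.93-fold higher. The calls against female kidney ended under median centring, at 0.61 for Mt1 (limma adjusted p = 0.109) and 0.69 for Mt2 (limma adjusted p = 0.0885), and when 1 of several samples was left out: female kidney 1, ovary 2 or ovary 3 for Mt1, and female kidney 1, female kidney 3 or ovary 2 for Mt2. Against female hypothalamus the differences were 0.01 ± 0.30 for Mt1 (95% interval -0.62 to 0.63) and -0.05 ± 0.32 for Mt2 (-0.71 to 0.62), with limma adjusted p = 0.988 and 0.914. Against female liver the dim Mt1 probe set, tested only because of its liver samples, gave -0.79 ± 0.25 (limma adjusted p = 0.00926). Mt3 in ovary was 3.05 ± 0.19 above female liver (limma adjusted p = 3.4e-12), 2.65 ± 0.19 above female kidney (limma adjusted p = 6.2e-11) and below female hypothalamus, with a difference of -3.20 ± 0.19 (limma adjusted p = 1.3e-12). It was tested because of its hypothalamus and ovary samples, so these p-values are not independent of that choice. Call rates were 58.7% against female liver, 50.2% against female kidney and 57% against female hypothalamus, of 18085 probe sets each. Calls higher in ovary made up 70.6% against female liver and 67.4% against female kidney, with 57.2% and 56.2% after quantile normalization and 46.1% and 45.3% after median centring.

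The ratio of Mt1 to Mt2 was tested between kidney, hypothalamus and liver, and no difference passed. The log2 ratio of Mt1 to Mt2, whose level depends on the probes and is read only between groups, had group means between 0.60 in testis and 0.96 in male liver. Kidney (0.81 ± 0.25) differed from liver (0.92 ± 0.20; SD, n = 6 each) by -0.11 (two-sided exact permutation p = 0.405). Hypothalamus (0.78 ± 0.20) differed from liver by -0.14 (exact permutation p = 0.232) and from kidney by -0.03 (exact permutation p = 0.851). After Benjamini-Hochberg adjustment over these 3 comparisons the p-values were 0.607, 0.607 and 0.851. Any signal of Mt2 read by the Mt1 probe set is part of this ratio and was not separated from it.

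In liver and kidney Mt1 and Mt2 deviated in the same direction in most samples, and in hypothalamus they did not. Deviations from the group means, with both sexes joined (n = 6), correlated between Mt1 and Mt2 at r = 0.983 (rho = 1) in liver and at r = 0.916 (rho = 0.943) in kidney. Permuting samples within groups gave an exact p = 0.0278 in each, the smallest that the 36 arrangements can give, and 0.0463 after adjustment over the 5 relations permuted. That counts the sexes as independent. It also leaves out the correlations of Mt3, below the test level there, with Mt1 and Mt2 in liver (0.19 and 0.27) and kidney (-0.52 and -0.44). Those were computed but not permuted, and an adjustment that covers them was not run. Over all probe sets same-numbered samples of the sexes deviated together in kidney, and in liver for numbers 1 and 3. When same-numbered samples are permuted together only 6 arrangements remain, whose smallest exact permutation p is 0.167, so neither correlation can pass. Without the 2 samples farthest from the median the values were 0.92 in liver and 0.7 in kidney. Read from the first arrays alone they were 0.943 and 0.807, and from the technical replicate arrays alone 0.989 and 0.936, with adjusted exact permutation p-values between 0.139 and 0.194. In hypothalamus the correlation of Mt1 and Mt2 was -0.493 (rho = -0.657, exact permutation p = 0.194), with -0.803 in the first arrays and 0.796 in the technical replicate arrays, so its sign differed between arrays of the same RNA. Mt1 and Mt3 correlated there at r = 0.988 (rho = 1, exact permutation p = 0.0278, adjusted 0.0463, and 0.167 with numbers permuted together), and at 0.721 in the first arrays and 0.708 in the technical replicate arrays (adjusted exact permutation p = 0.194 and 0.278). Those deviations were small, at most 0.143 for Mt1 and 0.242 for Mt3 on the log2 scale. Mt2 and Mt3 gave r = -0.549 (rho = -0.657, exact permutation p = 0.222), with -0.955 in the first arrays and 0.142 in the technical replicate arrays. Signal of another metallothionein in the Mt1 probe set was not separated from the correlations of Mt1.

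**Figure D4:**
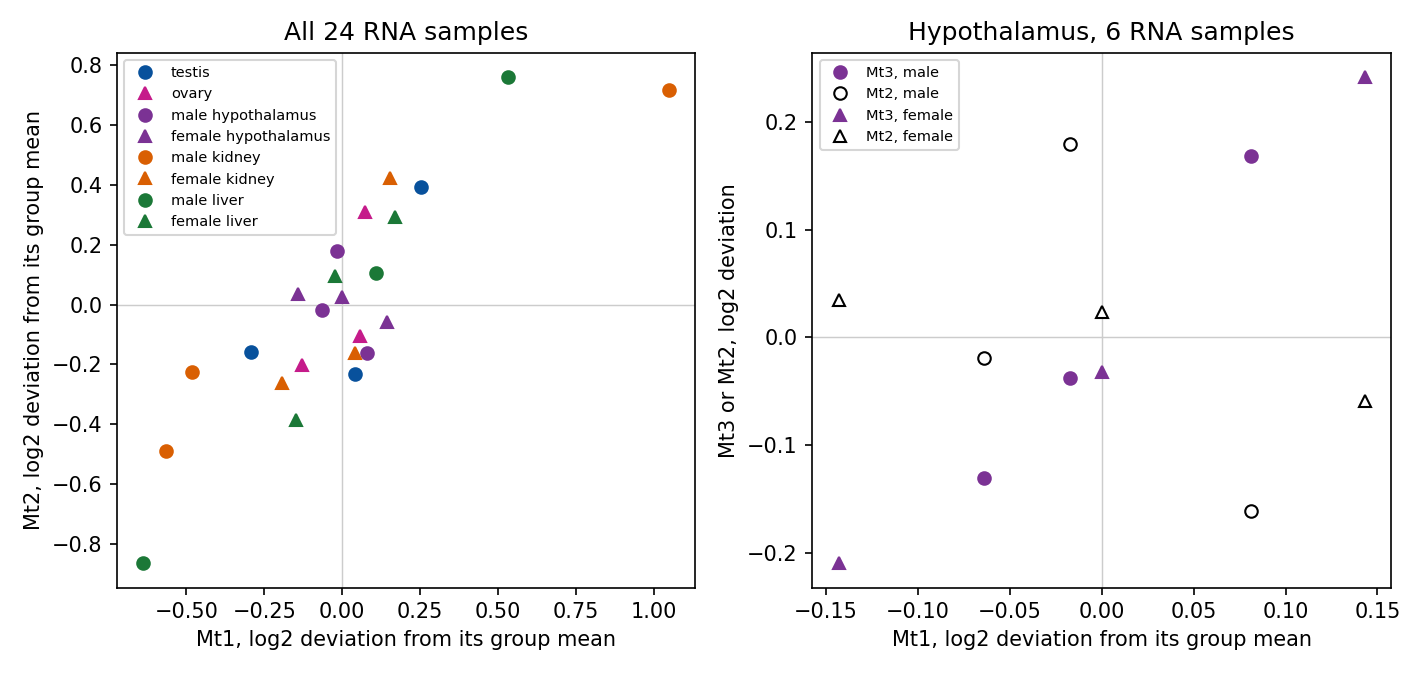
Log2 deviation of each RNA sample from its group mean, of Mt2 against Mt1 in all 24 RNA samples (left) and of Mt3 (filled) or Mt2 (open) against Mt1 in the 6 hypothalamus samples (right). The liver and kidney points of the left panel rise together (r = 0.983 in liver and 0.916 in kidney), and in hypothalamus Mt3 rises with Mt1 (r = 0.988) over a much narrower range.

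Other stress-responsive genes were uneven across the same liver samples. The genes named in this paragraph and the next were chosen after their values were seen, and no test was run on them. Saa1, an acute phase protein of liver whose probe set can also read its close copies, measured 2576, 16277 and 16880 in male liver samples 1 to 3 and 19808, 5903 and 13795 in female liver samples 1 to 3. Lcn2, a secreted protein of the acute phase response that binds bacterial siderophores, measured 1933, 13653 and 9149 in male liver and 14836, 6333 and 12946 in female liver. Male liver 1, the lowest liver sample of Mt1 and Mt2, was the lowest for both genes, and female liver 2, the lowest female sample of both metallothioneins, was the lowest female sample for both. The sum over the 20 acute phase genes on the array was 161491, 224286 and 225943 in male liver and 244197, 187164 and 205288 in female liver, in the same order within females as Mt1. Within males the order of samples 2 and 3 differed from that of Mt1. Of those 20 genes, 16 were lowest of the male livers in sample 1, 8 were lowest of the female livers in sample 2, and 7 met both. The share of all probe sets with the same lowest samples was not counted, so these counts do not set the list apart. Log2 deviations of the acute phase sum in liver (n = 6) correlated with those of Mt1 and Mt2 at 0.882 and 0.891. For glucocorticoid-responsive genes these were 0.849 and 0.905, for copper genes 0.773 and 0.796, and for zinc importers -0.022 and 0.035. The exocrine pancreas sum given above was highest in male liver 3 and female liver 1 and did not follow the order of Mt1 in males.

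In kidney, sample 2 was the highest of both sexes in Mt1 and Mt2 and in 7 of the 15 glucocorticoid-responsive genes. It was the highest in males for 7 and in females for 11 of the 15. Sample 2 of both sexes was also the highest in 5 of 12 oxidative stress genes and 1 of 8 zinc exporters, and in none of the importers, copper genes, MTF1 targets and acute phase genes of those lists. The share of all probe sets highest in sample 2 was not counted either, and same-numbered kidney samples deviated together over all probe sets. The 3 genes given here are among the 7. Cebpd, a transcription factor of the acute phase response, measured 190, 420 and 287 in male kidney samples 1 to 3 and 436, 777 and 462 in female kidney samples 1 to 3. Nfkbia, the inhibitor of NF-kappa-B, measured 3130, 4890 and 3463 in males and 3417, 4252 and 3669 in females. Sgk1, a kinase that acts on renal sodium channels, measured 909, 1461 and 1045 in males and 1283, 1841 and 1064 in females. Female kidney 2 was the highest kidney sample of Cebpd and Sgk1, whereas male kidney 2 was the highest in Mt1, Mt2 and Nfkbia. The sum of 7 hepatocyte genes was lowest in sample 2 of both sexes. It was 8682, 4969 and 9731 in males and 5991, 3949 and 4712 in females. Its log2 deviations in kidney (n = 6) correlated with those of Mt1 and Mt2 at -0.938 and -0.971. For the glucocorticoid-responsive sum these were 0.452 and 0.73, for exocrine pancreas genes -0.743 and -0.909, and for astrocyte markers -0.803 and -0.926. They were 0.763 and 0.482 for MTF1 and its targets, -0.672 and -0.804 for zinc importers and -0.109 and -0.426 for acute phase genes. Male germ cell markers, mostly below the test level in kidney, gave -0.49 and -0.755, so large values at n = 6 do not set a list apart. The part of any of these genes in the metallothionein values was not tested. In hypothalamus the sample numbered 1 was highest in both sexes for Mt1, Mt3 and the astrocyte sum, which was 31012, 29714 and 28019 in males and 29118, 28295 and 27101 in females. The neuron sum was lowest in sample 1 of both sexes, at 33796, 37435 and 37360 in males and 33721, 35098 and 35952 in females. The part of cell makeup in those values was not tested.

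**Figure D5:**
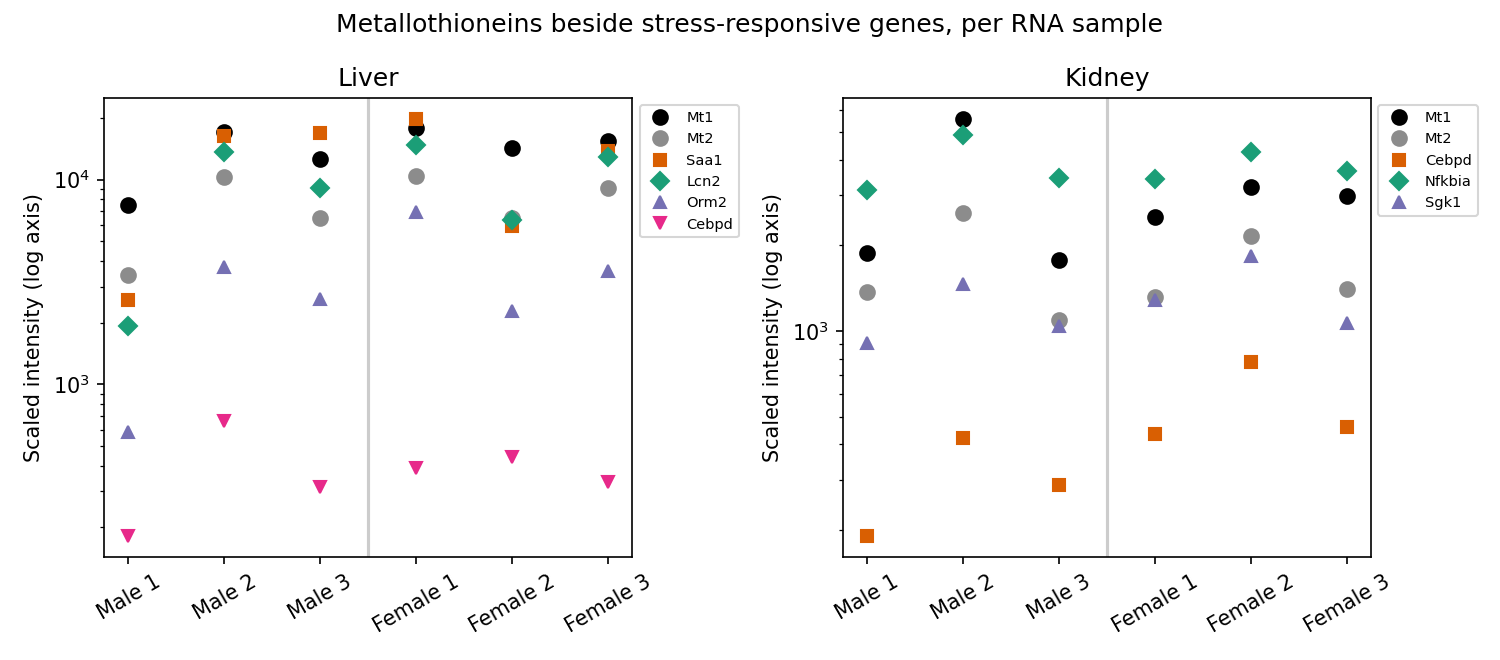
Scaled intensity on a log axis of Mt1, Mt2 and other stress-responsive genes in each liver sample (left, with Saa1, Lcn2, the acute phase gene Orm2 and Cebpd) and kidney sample (right, with Cebpd, Nfkbia and Sgk1), males left of females. Male liver 1 is the lowest liver sample in Mt1, Mt2, Saa1 and Lcn2, and kidney sample 2 of each sex is the highest of its group in Mt1, Mt2, Cebpd, Nfkbia and Sgk1. Heights of different genes are not comparable.

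Genes that sense or move zinc did not share 1 pattern with Mt1 and Mt2. Mtf1, the zinc sensor itself, was bright in testis, with 1299, 1648 and 881, against 203, 191 and 225 in ovary, and its group means elsewhere lay between 162 and 265. It rose in testis by 2.34 ± 0.22 on the log2 scale (SE, limma adjusted p = 1.1e-05). Slc30a1, a zinc exporter of the plasma membrane and a target of MTF1, measured 381, 503 and 865 in testis and 199, 212 and 195 in ovary, higher in testis by 1.26 ± 0.26 (limma adjusted p = 0.00164). In hypothalamus it was 209 ± 9.93 in males and 167 ± 21.0 in females (SD, n = 3 each), against 379 ± 66.4 in male liver and 345 ± 33.6 in female liver, with a log2 difference of -0.82 ± 0.15 (limma adjusted p = 2.9e-05). Gclc, which makes the first step of glutathione synthesis and is also a target of MTF1, fell by 1.47 in testis relative to ovary (limma adjusted p = 4.6e-05), by 1.25 in kidney relative to liver (limma adjusted p = 3.1e-09), and fell by 2.68 in hypothalamus relative to liver (limma adjusted p = 8.7e-16). Selenow, a small selenoprotein, was higher in hypothalamus than in liver by 1.77 ± 0.20 (limma adjusted p = 3.1e-08). The list of MTF1 and its targets, with 6 of 7 genes on the array, had 2 called higher and 2 lower in testis than in ovary, 0 higher and 3 lower in kidney than in liver, and 2 higher and 3 lower in hypothalamus than in liver. Its median log2 differences were 0.09, -0.33 and -0.26, beside -0.33, 0.06 and 0.18 over all genes tested in those comparisons. Counts of list genes here and below stand beside call rates over all probe sets of 70.5% for testis against ovary, 53.5% for kidney against liver, 76.2% for hypothalamus against liver and 72.5% for hypothalamus against kidney.

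Among zinc exporters, which lower cytosolic zinc, 3 of 8 tested rose and 0 fell in kidney relative to liver (median 0.17, against 0.06 over all genes). Slc30a2, an exporter into vesicles, measured 625, 439 and 468 in male kidney and 249, 228 and 257 in female kidney, against group means of 22.6 in male liver and 36.7 in female liver, below the test level. It was higher in kidney by 2.40 ± 0.13 (SE, limma adjusted p = 2.1e-13). Slc30a9 rose by 1.19 ± 0.12 (limma adjusted p = 9.3e-09). In hypothalamus relative to liver 3 exporters rose and 4 fell of 8 (median -0.18, against 0.18), and in testis relative to ovary 3 rose and 3 fell of 8 (median 0.04, against -0.33). Slc30a3, the exporter of synaptic vesicles, was higher in testis, with 1778 ± 432, than in ovary, with 429 ± 127 (SD, n = 3 each), by 1.94 ± 0.24 (limma adjusted p = 5.9e-05).

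Zinc importers, which raise cytosolic zinc, included 2 genes that were highest in liver, as Mt1 and Mt2 were. Slc39a4, the intestinal zinc importer, averaged 1397 ± 113 in male liver and 1065 ± 86.3 in female liver, and between 125 and 157 in kidney, hypothalamus and testis. It was lower in kidney than in liver, with a difference of -2.81 ± 0.13 (SE, limma adjusted p = 1.6e-14), and ovary was at 718 ± 58.6 (SD, n = 3 each). Slc39a14, a hepatic importer induced in inflammation, averaged 432 ± 39.3 in male kidney and 427 ± 15.3 in female kidney, against 1768 ± 220 in male liver and 2364 ± 1057 in female liver, a difference of -2.10 ± 0.14 (limma adjusted p = 1.5e-11). In female liver it measured 3583, 1813 and 1697, with sample 1 highest as for Mt1 but samples 2 and 3 in the opposite order. Its deviations from the group means over 24 samples correlated at -0.135 with Mt1 and -0.048 with Mt2. Slc39a6 was higher in hypothalamus, with 1046 ± 79.1 in males and 1000 ± 49.99 in females, than in liver, with 120 ± 13.6 in males and 124 ± 19.4 in females, by 2.67 ± 0.12 (limma adjusted p = 2.4e-15). Over the 10 importers tested, 2 rose and 3 fell in kidney relative to liver (median -0.09), 3 rose and 6 fell in hypothalamus relative to liver (median -0.67), and 2 rose and 6 fell in testis relative to ovary (median -0.88). The medians over all genes were 0.06, 0.18 and -0.33, and the 5, 9 and 8 called of 10 stand beside call rates of 53.5%, 76.2% and 70.5%.

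Of 12 copper genes tested, 5 rose and 6 fell in kidney relative to liver, 1 rose and 6 fell in hypothalamus relative to liver, and 0 rose and 9 fell in hypothalamus relative to kidney, with medians of -0.08, -0.40 and -0.56, against 0.06, 0.18 and 0.12 over all genes, and call rates over all probe sets of 53.5%, 76.2% and 72.5%. Ceruloplasmin, Cp, the copper oxidase that liver secretes into plasma, was lower in kidney than in liver, with a difference of -3.41 ± 0.19 (SE, limma adjusted p = 4.2e-13), and Ccs, the copper chaperone of superoxide dismutase, was lower in hypothalamus than in liver, with -2.67 ± 0.09 (limma adjusted p = 3.8e-18). In testis relative to ovary 3 copper genes rose and 5 fell of 12 (median -0.20), with Heph, a membrane copper oxidase, at -3.62 ± 0.22 (limma adjusted p = 7.7e-07). Lists of genes that respond to the same stimuli as Mt1 and Mt2 were counted beside the same call rates and medians over all genes. Acute phase genes fell in 20 of 20 in kidney and in 19 of 20 in hypothalamus relative to liver (medians -6.10 and -5.86). Of these genes 14 in male and 15 in female hypothalamus were below the test level in every sample. So were 9 in male kidney, 8 in female kidney and 11 in ovary, but 0 in liver of either sex. Such genes entered the fit through other groups, liver among them, so their falls are not independent of that choice. In ovary relative to female liver, 18 of these 20 fell, and glucocorticoid-responsive genes rose in 4 and fell in 4 of 15 (median -0.17, against 0.26 over all genes and a call rate of 58.7%). Glucocorticoid-responsive genes rose in 4 and fell in 8 of 15 in kidney relative to liver (median -0.44), and rose in 4 and fell in 10 of 15 in hypothalamus relative to liver (median -0.90). Oxidative stress genes rose in 3 and fell in 6 of 12 in kidney (median -0.42) and rose in 2 and fell in 10 of 12 in hypothalamus (median -1.33). In testis relative to ovary, where Mt1 and Mt2 were higher, 1 glucocorticoid-responsive gene rose and 10 fell of 13 (median -1.20), 2 acute phase genes rose and 4 fell of 8 (median -0.73), and 3 oxidative stress genes rose and 6 fell of 11 (median -0.47), against a median of -0.33 over all genes and a call rate of 70.5%. Between the sexes of a tissue 1 gene of these lists was called, Gsta2, a glutathione transferase, lower in male kidney with a log2 difference of -1.41 ± 0.16 (limma adjusted p = 0.0122).

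The genes whose group means ran most like those of each metallothionein were ranked by Pearson correlation over the 8 group means of log2 values, among 16630 probe sets. For Mt1 they were Wnt2 (r = 0.974), Crybb3 (0.973), Ifi27l2b (0.968), Dusp16 (0.965) and Zfp598 (0.962). For Mt2 they were Crybb3 (0.970), Wnt2 (0.963), Dusp16 (0.956), Ifi27l2b (0.952) and Prss16 (0.948), so that 4 names stood on both lists. Most were dim: Wnt2 averaged 188 in male liver and 206 in female liver, and 53.1 and 44.4 in male and female kidney. For Mt3 they were Camk2g (0.999), Map1b (0.999), Ndn (0.999), Clstn3 (0.998) and Mef2c (0.998). Map1b, a protein of neuronal microtubules, averaged 1466 in male hypothalamus and 1457 in female hypothalamus, and 199 in ovary, above the at most 29.6 of the other groups. Ndn, an imprinted gene expressed in neurons, averaged 5648 and 6036 in male and female hypothalamus and 865 in ovary, against 93.9 to 195 elsewhere, so both shared the second-highest place of ovary with Mt3. By deviations from the group means over 24 samples, the nearest to Mt1 were B4galt6 (0.804), Twf2 (0.784), Frg1 (0.784), Siva1 (0.779) and Rps18 (0.776). The nearest to Mt2 were Twf2 (0.869), Tspan4 (0.845), Pde4b (0.840) and 2 probe sets of Arrb2 (0.814 and 0.814), and the nearest to Mt3 were Srfbp1 (0.822), Ywhaz (0.764), Mtpn (0.758), Eps15 (0.753) and Med22 (0.746). These are descriptions over samples that share arrays and scaling. Mt2 itself correlated with Mt1 at 0.853 by deviations.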

How the data were processed

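Labelled RNA was hybridised to Affymetrix MOE430A arrays, 2 per RNA sample. The deposited values are linear intensity values per probe set, and every array as deposited has a mean near 500 once 2% is trimmed at each end. No source used here names the software, the scaling or the background correction. Probe sets were named from the platform annotation: of 22626 without controls, 20380 had 1 symbol, 691 several and 1555 none, and 20351 matched the GRCm38.p6 gene table.

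Arrays were brought to a trimmed mean of 500. For the tests log2(intensity + 48.3) was taken on each array, the pseudocount being the 20th percentile, and averaged over the 2 arrays of a sample. Intensities given in the text are averages of the linear values. A probe set was tested if it lay above the 40th percentile in 3 or more of the RNA samples in the fit. The dim Mt1 probe set met this only through liver, and Mt3 only through hypothalamus and ovary. Their p-values for being higher there are therefore not independent of that choice. Fold changes of dim probe sets are understated on this scale. Differences were tested with limma 3.58.1 in R 4.3.3 and Benjamini-Hochberg adjustment over all probe sets tested, at a threshold of 0.05. Each sex comparison and testis against ovary had a fit of its own. Tissues were compared in 1 fit of 24 samples and 8 groups, and sex differences between tissues in 1 fit of liver, kidney and hypothalamus. Single values were tested with exact permutation tests (scipy 1.17.1). The steps were tested on simulated data. The number of samples limits precision.

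The members and gene lists were chosen with earlier results of these data known. Named genes were the members, up to 4 genes per list and comparison with the lowest p, and the 5 genes most like a member. Where several probe sets of a gene were tested, the brightest stood for it in list counts. Genes chosen after their values were seen are marked as such.

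Same-numbered samples of the sexes deviated together in kidney (correlations 0.591, 0.424 and 0.627, against at most -0.117 between different numbers). In liver numbers 1 and 3 did (0.535 and 0.480) and number 2 did not (0.138), against at most 0.288 between different numbers. Hypothalamus had 0.389, 0.099 and 0.326 against at most 0.089, and gonads 0.041, 0.146 and 0.042 against at most 0.033, so several exceeded it only slightly. Any pairing is read from the data and not from the labels, and the number as a block was an alternative in every fit. Alternatives were other scalings, pseudocounts, no filter, single arrays, an intensity trend, the number as a block, other fits and each sample left out. The proteins' sequences were not used here.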

Additional observations from a re-analysis of the deposited data

Results flagged for a closer look

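In 2 list genes the sex difference of kidney differed from that of liver by the test of the difference itself. For Slc30a2 the sex difference in kidney, male minus female, exceeded that in liver by 1.18 ± 0.23 on the log2 scale (SE, limma adjusted p = 0.0374). It measured 625, 439 and 468 in male kidney and 249, 228 and 257 in female kidney, without overlap, and 22.6 on average in male liver and 36.7 in female liver, below the test level. Within kidney alone the difference was 0.92 ± 0.16 (limma adjusted p = 0.117). That difference passed with the sample number as a block (limma adjusted p = 0.0245), whereas the difference between tissues then did not (limma adjusted p = 0.0570). With 1 sample left out it lay at 1.03 to 1.27, and the call held without male liver 1, female liver 3 or male kidney 2 and was lost without any of the remaining liver and kidney samples. It was also lost with first arrays only (limma adjusted p = 0.439), technical replicate arrays only (0.177), 0.25 times the pseudocount (0.121), an intensity trend (0.0553) and the samples numbered 1 left out (0.246).

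For Gsta2 the difference between kidney and liver was -1.80 ± 0.25 (SE, limma adjusted p = 0.00168). It measured 1930, 2290 and 1750 in male kidney and 5292, 6040 and 4701 in female kidney, without overlap, a log2 difference of -1.41 ± 0.16 (limma adjusted p = 0.0122). The average was 1339 in male liver and 1029 in female liver, a difference of 0.40 ± 0.20 (limma adjusted p = 1). The kidney call was lost without male kidney 1, male kidney 3, female kidney 1 or female kidney 2 (limma adjusted p of 0.0632 to 0.0965), and without the samples numbered 1 (0.253). With samples numbered 1 of liver and kidney left out, the difference between tissues was -1.55 (limma adjusted p = 0.05003). The groups hold 3 samples each, too few for a test of single outlying samples, so male kidney 2 and male liver 1 carry no such test.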

How the results depend on the processing

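Of the values of the metallothioneins under the alternatives, 1193 kept their side of the threshold, of which 1103 kept their direction and 90, none of them called, turned. A further 37 lost the threshold and 11 gained it, and none turned round as a called value. Leaving out the samples numbered 1 of liver and kidney was chosen after seeing the data. Testis against ovary lost calls under several settings. Mt1 was at 0.19 with quantile normalization, 0.42 with first arrays only and 0.50 with all 8 groups in 1 fit, and at 0.38 to 0.65 with 1 sample left out. Mt2 was at 0.37 with quantile normalization, 0.60 with technical replicate arrays only and 0.68 with all 8 groups in 1 fit, and at 0.48 to 0.84 with 1 sample left out. Against male liver, testis Mt1 passed at -0.86 against the mean of both sexes and at -0.97 without samples numbered 1, and lay at -0.97 to -0.38 with 1 sample left out. Mt2 passed at -0.73 without samples numbered 1 and lay at -0.73 to 0.086 with 1 left out. Mt3 was at 0.23 with 4 times the pseudocount, 0.51 in first arrays and 0.61 in technical replicate arrays, and at 0.43 to 0.78 with 1 left out. Against male hypothalamus, testis Mt1 passed at 0.88 with median centring and at 0.47 with only the groups compared. Mt2 passed at 1.11 with median centring, 0.70 with the replicate block (limma adjusted p = 0.0366), 0.70 with only the groups compared and 0.67 against the mean of both sexes. The block changed no other call of a metallothionein. Against female kidney, ovary Mt1 was at 0.61 with median centring and at 0.77 to 0.94 with 1 sample left out, and Mt2 at 0.69 with median centring, 0.74 in technical replicate arrays and 0.80 to 1.16 with 1 left out. The dim Mt1 probe set in ovary against female liver was at -0.69 in technical replicate arrays and -0.69 without samples numbered 1. Mt3 in kidney against liver, below the test level, lost its call at 0.31 with median centring, 0.14 with 4 times the pseudocount, 0.39 in first arrays, 0.38 in technical replicate arrays, 0.38 in males, 0.39 in females and 0.31 without samples numbered 1, and lay at 0.29 to 0.47 with 1 left out. The cause was not tested for any of these. With quantile normalization the 3 correlations called between metallothioneins, under the adjustment over 5 relations, had adjusted exact permutation p-values of 0.0927, 0.0695 and 0.0695. They had 0.278 each with same-numbered samples permuted together as a replicate block, also chosen after seeing the data.

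Counts of probe sets called between the sexes moved most. In liver, 7 became 4 with 4 times the pseudocount, without the filter or without samples numbered 1, 11 with the block, 24 with all 8 groups in 1 fit, and 4 to 7 with 1 sample left out. In kidney, 32 became 137 with the block, 131 with all 8 groups, 16 without samples numbered 1 and 15 to 53 with 1 left out, 53 being without male kidney 2. The difference of sex differences gave 26 calls in first arrays and 28 to 74 with 1 left out for kidney against liver, where 74 was without male kidney 2. For hypothalamus against liver it gave 1 call with 0.25 times the pseudocount and 0 with 4 times, without the filter, in technical replicate arrays and without samples numbered 1, and 0 to 6 with 1 left out. In that limma fit 303 probe sets were under an unadjusted p of 0.05. For hypothalamus against kidney it gave 23 calls with 0.25 times the pseudocount, 23 in first arrays and 21 to 80 with 1 left out, 80 being without male kidney 2. Limits are 3 samples per group of uncertain independence, and RNA type that is joined to tissue for hypothalamus by 1 label field and not by another. The low signal of Mt3 outside hypothalamus and ovary and of the dim Mt1 probe set is a further limit.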
